A study of Mus musculus with 24 samples.

Results

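The transcripts of unexposed control macrophages were compared with those of the same line after 3 h of bacterial lipopolysaccharide (LPS). The comparison rests on 6 of the 24 arrays of the series, all those of the control line at 0 h (3 arrays) and at 3 h (3 arrays), chosen by the construct and the exposure time in the sample labels. The cells were RAW264.7, a mouse macrophage-like line, stably kept in medium with the selection drug G418 and carrying a construct for chloramphenicol acetyltransferase (CAT), a bacterial enzyme that serves as the control for a line carrying a Tbc1d23 construct. The 0 h group was left unexposed and the 3 h group received 20 ng/ml LPS, per the labels. There was 1 line for each construct, so a property of that line and of its construct is carried by every array. The remaining 18 arrays are the CAT line at 1 h and 5 h and the Tbc1d23 line at 0, 1, 3 and 5 h, again with 3 arrays a group. The 3 replicates are called biological in the design text. Whether they were grown as separate cultures is not stated, so a p-value measures only the spread between these samples.

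LPS, a lipid of the outer wall of Gram-negative bacteria, is handed by CD14 to a complex of TLR4 and MD-2 (Ly96) on macrophages. The adaptors TIRAP and MyD88 then lead to NF-kB and the MAP kinases, which switch on cytokine genes within the first hour. The adaptors TRAM and TRIF lead to IRF3 and to the making of interferon beta, which acts back on the cells through JAK kinases and STAT proteins and switches on a later group of antiviral genes. Early transcription factors, the first cytokines, inhibitors that end the signal and interferon-dependent genes can thus overlap in a sample taken at 3 h.

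Cy3-labelled RNA was read on one-colour Agilent arrays. A level is the log2 processed signal relative to the 75th percentile of its array, so that 0 marks that percentile. Between 48.6 and 53.3% of probes on these arrays were well above background, and the 75th percentile was 149 to 223 signal units. Across genes, arrays of 1 group correlated at r = 0.981 to 0.991 and arrays of different groups at 0.933 to 0.944. Genes are not independent replicates. The 3 replicates lay on 3 slides, each with its 0 h array in position 1 and its 3 h array in position 3, so the time of exposure and the position on the slide cannot be told apart. Unless marked SD, the value after a ± is the limma standard error, with 3 arrays in each group.

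Macrophage markers were present at both times. Of 43 macrophage genes tested, 39 were well above background on all 6 arrays. The sum of their linear levels was 2508 to 2841 at 0 h and 2818 to 3533 at 3 h, where 1 is the level of the 75th percentile. Among 14 commonly used reference genes, 1 was called lower and 0 higher. These counts were 3 lower and 0 higher with quantile normalization, and 3 lower and 3 higher with the slide as a block. Gapdh lay at 7.82, 7.61 and 7.69 at 0 h and 7.82, 7.60 and 7.89 at 3 h, with overlapping groups and a difference of 0.06 ± 0.15 that turned to -0.25 with quantile normalization. The endogenous Tbc1d23 transcript differed by -0.40 ± 0.21 in this line (limma adjusted p = 0.178) and was called lower with the slide as a block (adjusted p = 0.00884).

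At 3 h 5232 of 15079 gene names tested (34.7%) differed from 0 h at a Benjamini-Hochberg adjusted p under 0.05 in limma, 2590 higher (17.2%) and 2642 lower (17.5%). The split between the directions depended on the scaling, with 2298 higher and 3253 lower under quantile normalization and 2298 and 3234 in the deposited values. The largest differences lay on the higher side. At least 2-fold were 1184 of the higher genes (7.85% of those tested) and 1069 of the lower genes (7.09%). At least 16-fold were 191 higher genes against 12 lower genes, and at least 256-fold were 22 against 0. Not well above background on any array at 0 h and well above it on all 3 at 3 h were 154 of the higher genes, and 89 of the lower genes went the opposite way. For such genes a fold is given as a lower bound ("at least"), the mean of the bright group against the higher of the dim signal and the lowest signal well above background on each array. Calls were most frequent at middling levels, with 48.0% of the genes between 0 and 2 called against 18.9% of those under -2. The groups did not overlap for 3418 genes that were higher on all 3 arrays (22.7%) and 3350 that were lower (22.2%). With 3 arrays a side the smallest p of an exact permutation test is 0.1, so the calls rest on the limma model. With each array scaled to its median 2341 genes were called, 1174 higher and 1167 lower, and with the normexp background correction 1568, 885 higher and 683 lower. That correction could not be fitted well on 6 of the 24 arrays, 1 of them in this comparison. With those fits replaced (the repaired correction, chosen after seeing the data) 4913 were called. In bulk RNA a change in the number of cells of a kind and a change of RNA per cell cannot be told apart.

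**Figure D1:**
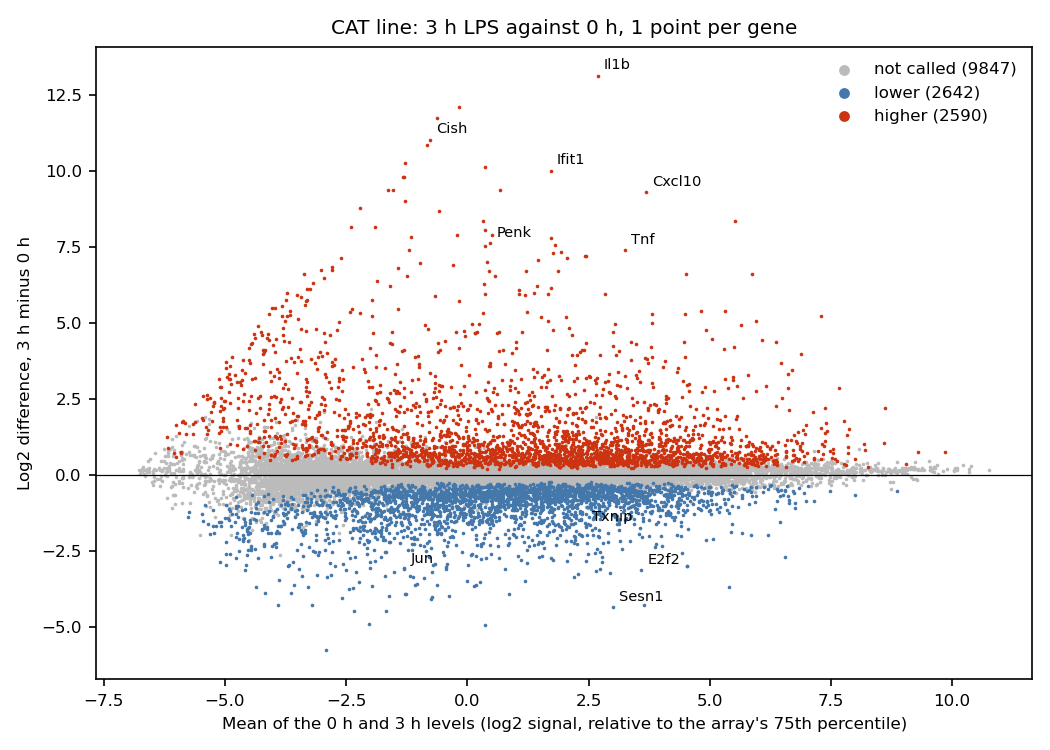
Log2 difference of each of 15079 genes between 3 h and 0 h of LPS in the CAT line (y axis) against its mean level (x axis, log2 signal relative to the 75th percentile of the array); red points were called higher, blue points lower and grey points were not called by limma. The upward tail reaches 13.14 for Il1b, and Sesn1 lies at -4.35.

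Transcripts of secreted cytokines rose together, and Il1b had the largest difference of all genes tested. Of 36 cytokine and growth factor genes tested, 29 rose and 2 fell, with a median log2 difference of 3.38 (2.59 with genes below background at their bound) against 0.01 over all genes. A gene could pass the filter on dim probes through its LPS arrays alone. Well above background on all 3 arrays were 20 of the 36 at 0 h and 35 at 3 h. With probes kept only if well above it on all 6 arrays, 14 of 20 rose and 2 fell, with a median of 1.65. Il1b, the pyrogenic cytokine interleukin-1 beta (probe at chr2:129190347-129190406, build mm9), lay at -4.05, -3.81 and -3.79 at 0 h and 9.42, 9.31 and 9.03 at 3 h. No array of one group came near the other, and the difference of 13.14 ± 0.25 was 8999-fold (limma adjusted p = 1.06e-17). The 0 h arrays were well above background but dim, so the size of this fold depends on a dim signal. The same holds for Csf1, Cd40, Ifit1 and Penk below. Tnf, tumour necrosis factor (chr17:35336795-35336854), lay at -0.19, -0.51 and -0.68 before and 6.96, 6.87 and 7.01 after LPS, 169.7-fold higher (7.41 ± 0.14). Il1a, the other interleukin-1, was not well above background at 0 h and lay at 6.15, 5.55 and 5.98 at 3 h, at least 1414-fold higher. Il6, which drives the acute-phase response, likewise came out of the background, to 3.95, 3.93 and 3.65, and was at least 341-fold higher.

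The growth factor and counter-regulatory cytokines moved too. Csf1, the factor that sustains macrophages themselves, lay at -3.70, -3.00 and -3.52 at 0 h and 4.01, 4.34 and 4.01 at 3 h, 185-fold higher with groups far apart. Il33, an alarmin of the interleukin-1 family, was below background at 0 h and at least 197-fold higher at 3 h. Il10, which restrains macrophage activation, was well above background on 1 of 3 arrays at 0 h and on 3 of 3 at 3 h, and rose by 3.56 ± 0.38. Il16 (-0.78) and the receptor Il17ra (-0.57) were the members called lower. Both lost the call with each array scaled to its median and in a fit of the 6 arrays alone. Il12b was on the array and did not pass the filter on dim probes, so its response is not analysed here.

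**Figure D2:**
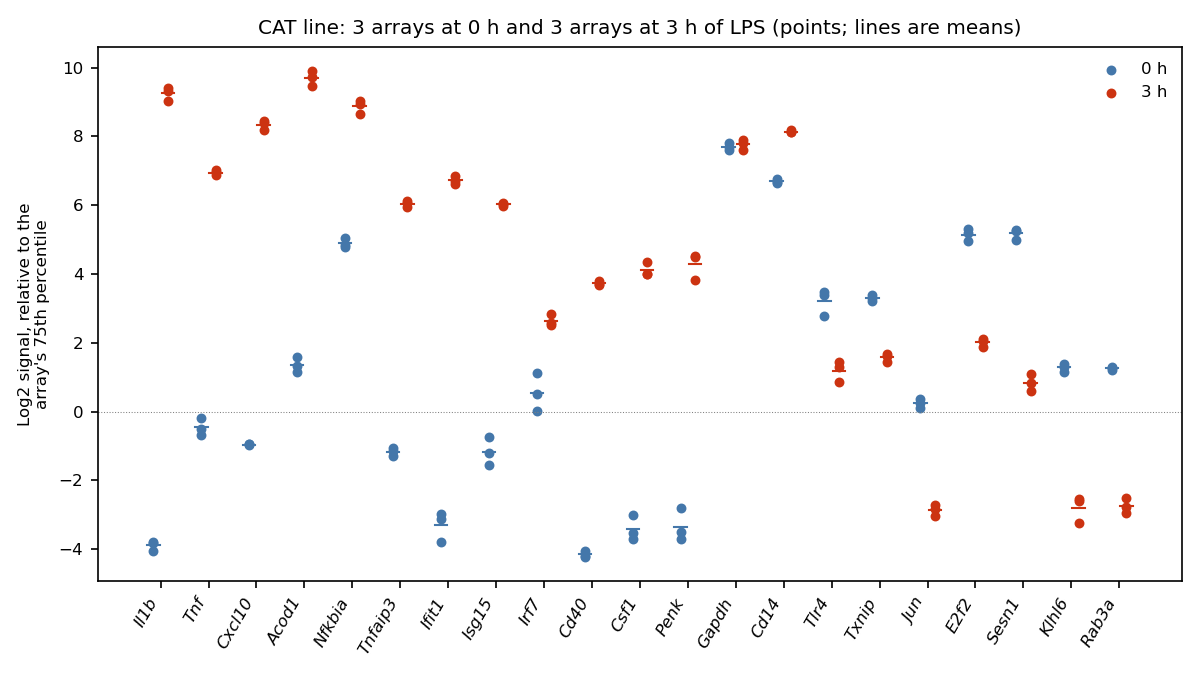
Log2 signal relative to the 75th percentile of each array for 21 genes (x axis), with 3 arrays at 0 h (blue points) and 3 arrays at 3 h (red points) of the CAT line and a line at each group mean. Gapdh is the only gene shown whose groups overlap; from Il1b to Penk and for Cd14 the 3 h arrays lie above, and from Tlr4 to Rab3a they lie below.

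Chemokines, which draw neutrophils, monocytes and lymphocytes, rose as a group. Of 23 tested, 20 rose and 0 fell, with a median of 4.49 (3.44 at the bounds). Well above background on all 3 arrays were 13 of the 23 at 0 h and 22 at 3 h. With the filter on all 6 arrays 11 of 13 rose and 0 fell, with a median of 2.85. Cxcl10, a ligand of CXCR3 on activated T cells (chr5:92775781-92775840), lay at -0.94, -0.95 and -0.98 at 0 h and 8.44, 8.39 and 8.19 at 3 h. Its arrays were tightly grouped at both times, and it was 629-fold higher (9.30 ± 0.12, limma adjusted p = 4.1e-20). Cxcl11, another CXCR3 ligand, was below background at 0 h and at least 282-fold higher, and Cxcl2, a neutrophil attractant, was at least 904-fold higher. Ccl5, bright already at 0 h (4.74, 4.58 and 4.73), reached 10.19, 9.91 and 9.65 and was 37.7-fold higher. The 3 members without a call were Ccl19, Ccl25 and Cxcl9. The receptors of chemokines and other ligands of G proteins split, with 10 of 31 higher and 10 lower. With quantile normalization these were 9 and 10. Ccrl2, an atypical receptor that binds chemerin, rose by 7.33 ± 0.25, Rgs16 by 6.08 and the niacin receptor gene Hcar2 by 5.72. S1pr1, the sphingosine 1-phosphate receptor of cell egress, fell (-3.71) and was well above background on 2 of 3 arrays at 3 h. Lower as well were Rgs2 (-2.98) and Rgs14 (-2.61).

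The receptors that start the response diverged. Of 23 Toll-like receptor, co-receptor and adaptor genes, 13 rose and 3 fell. Tlr4, the receptor of LPS, lay at 2.77, 3.47 and 3.39 at 0 h and 1.29, 1.45 and 0.85 at 3 h. All 3 arrays at 3 h were lower, and the transcript was 4.03-fold lower (-2.01 ± 0.22, limma adjusted p = 6.03e-07). Cd14, its co-receptor, lay at 6.76, 6.65 and 6.67 at 0 h and 8.19, 8.12 and 8.12 at 3 h, 2.73-fold higher, and Tlr2, the receptor of bacterial lipoproteins, was 4.85-fold higher (2.28 ± 0.20). Irak2, a kinase that prolongs Toll-like receptor signals, rose by 2.23 ± 0.11. Irak4, the first kinase of that complex (-0.64 ± 0.19), and the RNA receptor Tlr7 (-0.56 ± 0.13) were lower by small amounts, and scaling to the array median ended both calls. The Irak4 call was also lost when CAT 3 h replicate 1, CAT 0 h replicate 2 or CAT 0 h replicate 3 was left out. Tlr3, which senses double-stranded RNA, was called higher, at least 1.65-fold from below background at 0 h. Its call was lost with the repaired normexp background correction.

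Transcripts of NF-kB proteins and of the inhibitors that stop them rose together. Of 15 NF-kB subunits, IkB proteins and IkB kinases, 13 rose and 0 fell, with a median of 2.81. Nfkbia, which encodes the inhibitor IkB alpha, lay at 4.80, 5.06 and 4.84 at 0 h and 8.94, 9.03 and 8.64 at 3 h and was 15.7-fold higher. The nuclear IkB protein Nfkbiz (5.95 ± 0.20), the inhibitor Nfkbie (4.71 ± 0.13) and the kinase Ikbke (4.93 ± 0.30), which acts on IRF3, were the 3 largest differences. Of 29 TRAF and ubiquitin signalling genes, 17 rose and 3 fell. Tnfaip3, the ubiquitin-editing enzyme A20 that shuts off NF-kB, lay at -1.15, -1.06 and -1.28 at 0 h and 6.12, 6.07 and 5.96 at 3 h. It was 149-fold higher with groups far apart, beside Traf1 at 6.63 ± 0.13 and the ubiquitin ligase Peli1 at 4.15 ± 0.22. The lower members were Traf4 (-1.01), Tab1 (-0.99), a partner of the kinase TAK1, and Ripk1 (-0.72). Ripk1 lost its call in the fit of the 6 arrays alone, with median scaling, and when CAT 0 h replicate 1, CAT 3 h replicate 1 or CAT 3 h replicate 2 was left out.

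Matches to the NF-kB consensus were counted in RefSeq promoter windows (GRCm38.p6, 250 bases before to 50 after the start; 13107 windows of 10383 genes tested). The NF-kB site, searched by its usual 10-letter consensus on both strands, was in 15.8% of 520 windows of genes called and at least 4-fold higher, in 30 of 249 windows of genes at least 4-fold lower and in 10.2% of all windows. In the windows of the NF-kB list it was in 38.9% of 18, and in those of the chemokine list in 29.4% of 17. The AP-1 site TGANTCA was in 12.5%, 5.22% and 5.55% of the same 3 sets (9.18% of 1111 windows of genes at least 2-fold higher), the CRE (TGACGTCA) in 3.08%, 1.61% and 2.89%, the serum response element in 1.92%, 0.402% and 1.28%, and the E-box CACGTG in 7.31%, 12.9% and 9.57%. Matches may share bases with each other, several windows of 1 gene can overlap, and a match is a description, not a site of binding. The stretches below were picked from induced cytokine, chemokine and inhibitor genes that held a match. The windows of Il1b, Il1a, Tnf and Socs3 held no NF-kB match. Capitals mark the NF-kB match and the sequence runs 5′ to 3′ along the strand of the gene.
Cxcl2 (chr5:90903778-90903835, plus strand): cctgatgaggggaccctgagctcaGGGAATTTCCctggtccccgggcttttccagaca
Il6 (chr5:30013046-30013103, plus strand): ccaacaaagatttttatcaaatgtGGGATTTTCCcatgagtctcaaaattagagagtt
Ifnb1 (chr4:88522877-88522934, minus strand): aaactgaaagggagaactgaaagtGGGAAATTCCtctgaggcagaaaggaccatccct
Csf1 (chr3:107760590-107760647, minus strand): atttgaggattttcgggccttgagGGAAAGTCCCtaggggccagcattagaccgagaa
Nfkbia (chr12:55492648-55492700, minus strand): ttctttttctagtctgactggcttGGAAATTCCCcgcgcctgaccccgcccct
The matches of Cxcl2, Il6 and Ifnb1 read along the gene (that of Cxcl2 on both strands, 1 base apart), and those of Csf1 and Nfkbia read on the opposite strand.

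Interferon beta and genes known as interferon-stimulated rose with few exceptions. Whether they depended on interferon beta here was not tested. Ifnb1 was below background on all 3 arrays at 0 h and lay at 3.35, 3.26 and 2.83 at 3 h, at least 210.3-fold higher. Of 61 antiviral interferon-stimulated effectors tested, 56 rose and 0 fell, with a median of 2.70. Ifit1, which binds viral RNA lacking the host's cap methylation (chr19:34723796-34723855), lay at -2.97, -3.78 and -3.11 at 0 h and 6.62, 6.84 and 6.71 at 3 h. Its groups were far apart, a 1032-fold rise (10.01 ± 0.17, limma adjusted p = 3.57e-18). Isg15, a ubiquitin-like modifier, lay at -0.74, -1.55 and -1.20 before and 6.05, 5.98 and 6.06 after LPS, 146-fold higher. Rsad2 (viperin) rose by 10.13 ± 0.20 and Ifit3 by 9.36 ± 0.23. They were well above background on 1 and 2 of 3 arrays at 0 h, so these sizes depend on dim signals. The 5 effectors without a call were Samhd1, Ifitm1, Ifitm6, Ifi27 and Oas1b.

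The interferon-inducible GTPases, which attack vacuoles that hold pathogens, rose likewise, with 12 of 14 higher, 0 lower and a median of 4.02. Gbp3 rose by 6.71 ± 0.16, and Gbp2, well above background on 2 of 3 arrays at 0 h, by 6.54 ± 0.87. Iigp1 came out of the background and was at least 16.2-fold higher. Among interferon regulatory factors and partners 8 of 15 rose and 0 fell. The counts were 8 higher and 2 lower with quantile normalization, with the repaired normexp correction and with the slide as a block. Irf7, which amplifies interferon production, lay at 1.13, 0.02 and 0.50 at 0 h and 2.52, 2.59 and 2.84 at 3 h, 4.28-fold higher. Prdm1 (Blimp-1) rose from below background, at least 8.47-fold, and Irf4, well above background on 1 of 3 arrays at 0 h, by 4.13 ± 0.64.

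In the JAK-STAT pathway the inhibitors rose the most. Of 30 receptors, kinases, STAT proteins and SOCS inhibitors, 18 rose and 5 fell. Cish, a SOCS family inhibitor of STAT5 signals, was below background at 0 h, reached 4.51, 5.02 and 4.73 at 3 h and was at least 639.5-fold higher. Socs1 and Socs3, inhibitors of interferon and interleukin-6 signals, rose by 5.19 ± 0.21 and 5.08 ± 0.16. The receptor chains of interleukin-6 were lower, Il6st (gp130, -1.16 ± 0.10) and Il6ra (-1.02 ± 0.20), as was the STAT inhibitor Pias3 (-1.92 ± 0.14).

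The interferon response element, searched on both strands as GAAA, any 2 bases, GAAA, was in 11.2% of the 520 windows of genes at least 4-fold higher, in 0.402% (1 of 249) of the windows of genes at least 4-fold lower and in 3.12% of all 13107 windows. In sets of at least 2-fold it was in 8.37% of 1111 and 1.86% of 1023 windows. It was in 35.9% of 64 windows of the antiviral effectors and in 8 of 10 windows of the GTPases. On the opposite strand the element reads TTTC, any 2 bases, TTTC. These stretches show it, in capitals, in front of strongly induced antiviral genes and of the inhibitor Socs1.
Ifit1 (chr19:34640780-34640837, plus strand): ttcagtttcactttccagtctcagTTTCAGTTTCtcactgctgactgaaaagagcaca
Isg15 (chr4:156200857-156200914, minus strand): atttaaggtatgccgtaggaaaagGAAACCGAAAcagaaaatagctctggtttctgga
Ifit3 (chr19:34583349-34583406, plus strand): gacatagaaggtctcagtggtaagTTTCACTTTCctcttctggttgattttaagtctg
Gbp2 (chr3:142620580-142620637, plus strand): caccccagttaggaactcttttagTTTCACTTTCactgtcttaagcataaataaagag
Socs1 (chr16:10785580-10785637, minus strand): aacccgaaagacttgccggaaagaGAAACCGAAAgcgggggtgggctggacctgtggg
Cxcl10 (chr5:92349069-92349126, minus strand): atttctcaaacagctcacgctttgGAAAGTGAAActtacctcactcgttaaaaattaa
Ifit1 and Ifit3 each held 2 matches, Socs1 held 2 that overlap and Isg15 held 3 that overlap, of which 1 is in capitals. Cxcl10 held this element and the NF-kB and AP-1 matches in 1 window, and Cmpk2 held none of the 6 motifs.

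**Figure D3:**
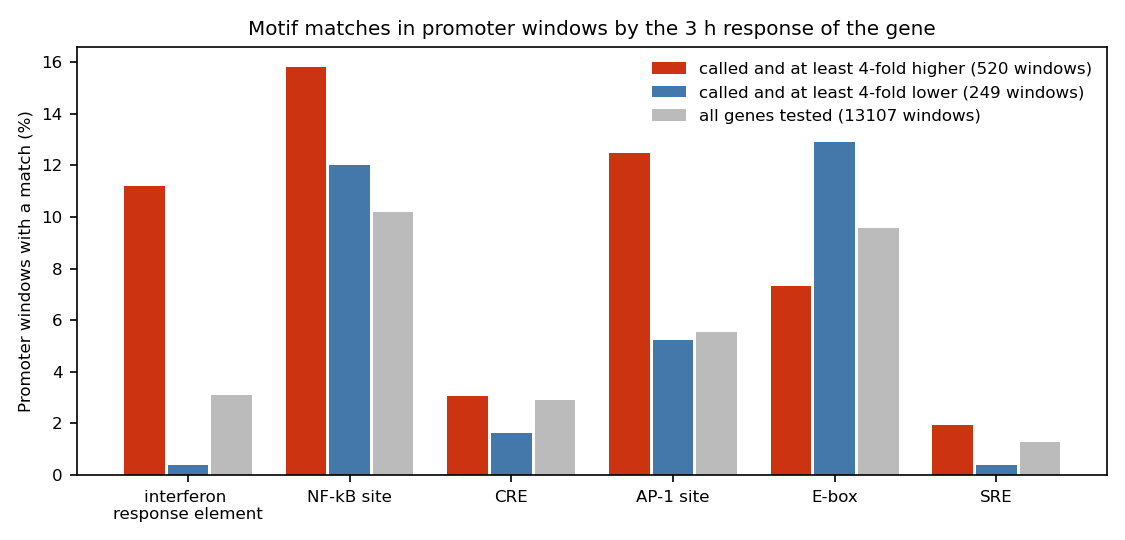
Percent of promoter windows with a match to each of 6 motifs (x axis) for genes called and at least 4-fold higher at 3 h (red), at least 4-fold lower (blue) and all genes tested (grey). The interferon response element is in 11.2%, 0.402% and 3.12% of these sets, and the AP-1 site in 12.5%, 5.22% and 5.55%.

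Of 22 genes of cytosolic sensors and the inflammasome, 14 rose and 2 fell. Ifih1 (MDA5), a sensor of long double-stranded RNA, rose by 4.99 ± 0.12, the DNA-binding Ifi202b by 4.32 ± 0.13, and its relative Ifi205 was at least 6.48-fold higher from below background. The signalling hub Mavs (-0.97 ± 0.13) and its regulator Nlrx1 (-0.99 ± 0.12), both on mitochondria, were lower.

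Several early transcription factors had come back down by 3 h. Of 40 immediate early and AP-1 genes 25 were higher and 6 lower than at 0 h. Myc lay at 6.53 above its 0 h level, the small Maf protein Maff at 5.21 and the stress gene Ier3 at 3.50. Jun, a core subunit of AP-1, lay at 0.10, 0.37 and 0.26 at 0 h and -2.84, -2.71 and -3.02 at 3 h, 8.57-fold lower with separate groups (limma adjusted p = 1.57e-14). Its mean at 1 h had been 3.09 ± 0.18 (SD, n = 3). Bhlhe41 and Klf4 were lower (-3.33 ± 0.41 and -1.30 ± 0.19), and Bhlhe41 was not well above background at 3 h (at least 6.15-fold lower).

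The 3 h arrays were also compared directly with the 1 h arrays of the line, where 4397 genes (29.2%) were called. The 6 largest falls among genes measured at 0, 1 and 3 h and at least 2-fold different at 3 h were Jun (-5.94 ± 0.10), the nuclear receptor Nr4a1 (-5.90 ± 0.22), the zinc finger factors Egr1 (-5.38 ± 0.26) and Egr3 (-3.92 ± 0.18), Prtg (-3.96 ± 0.17) and Klhl6 (-3.82 ± 0.15). Jun, Nr4a1, Egr1 and Egr3 peaked at 1 h. Nr4a1 went from 2.54 ± 0.33 at 0 h to 9.55 ± 0.13 at 1 h, 3.65 ± 0.28 at 3 h and 6.19 ± 0.13 at 5 h (SD, n = 3 each). Prtg and Klhl6 stood at -0.01 and -0.25 against 0 h at 1 h, and at -3.97 and -4.07 at 3 h. The 6 largest gains were Penk, the precursor of enkephalin peptides (6.92 ± 0.64), the antiviral Mx2 (6.68 ± 0.18), Cmpk2 (6.29 ± 0.14) and Ifit1 (5.79 ± 0.17), Shisa3 (6.26 ± 0.37) and the death receptor Fas (5.73 ± 0.24). Mx2 and Cmpk2 stood at -0.52 and -0.30 against 0 h at 1 h, at 6.16 and 5.99 at 3 h and at 6.39 and 7.66 at 5 h. Ifit1, by contrast, had risen by 1 h, from -2.97, -3.78 and -3.11 at 0 h to 0.67, 1.14 and 0.99. The largest adjusted p among these 12 differences was 7.09e-08 (limma). The Egr1 difference between 3 h and 0 h (1.07) was not called with scaling to the array median.

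**Figure D4:**
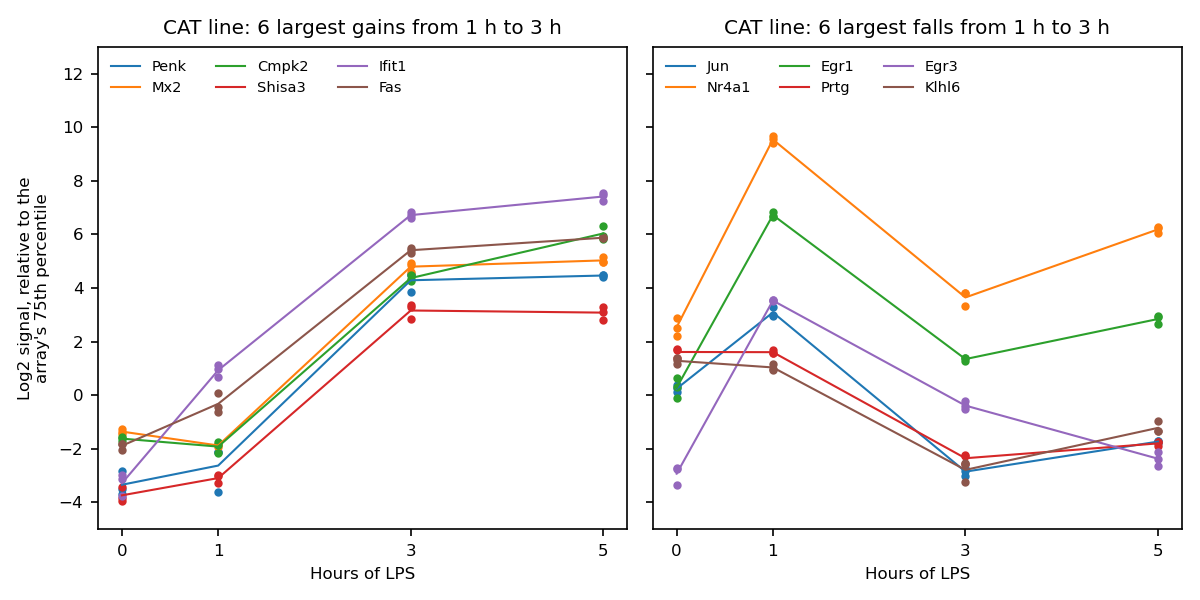
Log2 signal relative to the 75th percentile of each array against hours of LPS in the CAT line, for the 6 genes with the largest gain from 1 h to 3 h (left) and the 6 with the largest fall (right); points are 3 arrays per time and lines join their means. Mx2 and Cmpk2 lie near their 0 h level at 1 h and above it at 3 h, and Jun, Nr4a1, Egr1 and Egr3 peak at 1 h.

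The comparisons at 1, 3 and 5 h share the 0 h arrays, so their values are only set side by side. At 1 h 1101 genes (7.30%) and at 5 h 6245 genes (41.4%) were called against 0 h. The median log2 difference of the antiviral effectors was 0.04 at 1 h, 2.70 at 3 h and 3.47 at 5 h, and that of the NF-kB list 1.41, 2.81 and 2.77. Tnf stood at 7.11, 7.41 and 6.52, and the mean level of Il6 was -2.85 ± 0.45 at 1 h, 3.84 ± 0.16 at 3 h and 5.31 ± 0.16 at 5 h (SD, n = 3).

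Some genes that dampen MAP kinases and cytokine messages were higher at 3 h. Of 25 MAP kinase feedback genes 10 rose and 3 fell. The phosphatases Dusp1 and Dusp2 rose by 4.60 ± 0.20 and 4.48 ± 0.11 and the stress gene Gadd45b by 4.38 ± 0.19, while Dusp7 fell (-1.02). Of 18 regulators of messenger RNA decay 7 rose and 2 fell, with a median of 0.08 that was -0.10 with quantile normalization. Zc3h12a (regnase-1), an endonuclease that cuts Il6 messages, rose by 5.45 ± 0.57 (well above background on 1 of 3 arrays at 0 h), Zfp36 (tristetraprolin), which binds AU-rich messages, by 3.23 ± 0.14 and Zc3h12c by 3.09 ± 0.18. The tristetraprolin relative Zfp36l2 (-1.62) and the antiproliferative Tob1 (-3.08) fell, both well above background on 1 of 3 arrays at 3 h.

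Enzymes that make small mediators were induced. Of 19 genes of itaconate, nitric oxide, polyamine and sterol messengers, 14 rose and 0 fell. Acod1, which makes the antibacterial metabolite itaconate (chr14:103455191-103455251), lay at 1.14, 1.60 and 1.33 at 0 h and 9.89, 9.73 and 9.47 at 3 h, 325-fold higher. Hdc, which makes histamine, rose by 8.37 ± 0.20 from a level measured on 2 of 3 arrays, and Gpr84, a receptor of medium-chain fatty acids, by 7.13 ± 0.15. Nos2, the inducible nitric oxide synthase, was called higher (at least 1.02-fold, limma adjusted p = 1.17e-05) yet was well above background on 0 of 3 arrays at 0 h and 1 of 3 at 3 h. Its direction turned with the normexp background correction.

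Prostaglandin genes changed at both ends of the pathway. Ptgs2 (COX-2), the inducible synthase, was below background at 0 h, reached 3.12, 3.14 and 3.40 at 3 h and was at least 221-fold higher. The receptor gene Ptger2 of prostaglandin E2 was at least 133-fold higher, and the terminal synthase Ptges rose by 3.55 ± 0.25. Hpgd, the dehydrogenase that inactivates prostaglandins, lay at 0.59, 0.35 and 0.35 at 0 h and below background at 3 h, at least 26.0-fold lower. Hpgds, which makes prostaglandin D2, fell (-1.30 ± 0.14). Over the list 6 of 16 rose and 5 fell. With quantile normalization the count was 6 higher and 8 lower.

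Most transcripts listed for surface proteins of activated macrophages were higher. Of 24 costimulation, adhesion and MHC class II genes 18 rose and 2 fell. Cd40, which receives T cell help, lay at -4.19, -4.04 and -4.21 at 0 h and 3.71, 3.68 and 3.80 at 3 h. It was 236-fold higher, a size that depends on the dim signal at 0 h. Fas lay at -2.05, -1.81 and -1.81 before and 5.51, 5.42 and 5.31 after LPS (7.30 ± 0.24), while its other probe gave 4.33. Tnfsf4 (OX40 ligand) was at least 10.1-fold higher from below background, and Vsir (VISTA), an inhibitory ligand, and the integrin Itga4 fell (-1.73 and -1.22). MHC class I genes rose by small amounts, with 13 of 18 higher, 0 lower and a median of 0.56. With scaling to the array median, and with normexp, 2 of the 18 were called higher. The peptide transporter Tap1 (2.16 ± 0.17) was the one past 2-fold.

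Of 28 complement, acute-phase and protease genes 17 rose and 2 fell. Plau (urokinase), an activator of plasminogen, fell (-1.39 ± 0.16). Saa3, an acute-phase protein well above background on 2 of 3 arrays at 0 h, rose by 7.89 ± 0.39 and the protease inhibitor Timp1 by 6.29 ± 0.24, whereas Timp2 fell (-1.59 ± 0.48). The Timp2 call was lost without CAT 3 h replicate 1 or CAT 0 h replicate 2. Among further genes of large size, Penk lay at -3.51, -2.81 and -3.71 at 0 h and 4.54, 4.49 and 3.84 at 3 h (7.63 ± 0.64, and 4.58 on its other probe). Marcks, a substrate of protein kinase C, was at least 570.2-fold higher, and Flrt3 at least 286-fold higher (5.98 on its other probe).

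Genes of macrophage identity went both ways. Of 43 tested 15 rose, 6 fell and 22 were not called, with a median of 0.26. The called share was 48.8% against 34.7% of all genes, and 34.9% were at least 2-fold different against 14.9%. Clec4e (Mincle), a receptor of mycobacterial glycolipid, rose by 4.93 ± 0.20. Sirpa, the receptor of the signal CD47 (-1.54 ± 0.23), and the Fc receptor Fcgr3 (-1.19 ± 0.10) fell. Csf1r, the receptor of Csf1, lay at 6.60, 6.63 and 6.57 at 0 h and 6.18, 6.16 and 6.17 at 3 h. The groups did not overlap, but with the spread pooled over 8 groups the difference of -0.43 ± 0.24 was not called (limma adjusted p = 0.197), and with the slide as a block it was (adjusted p = 3.47e-05).

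Among called lineage factors more were higher, and among called chromatin enzymes more were lower except with scaling to the array median or normexp. Of 35 nuclear receptor and lineage factor genes 14 rose and 6 fell, and all 14 of the higher ones passed 2-fold. The list was led by Hivep3 (3.48 ± 0.10) and Creb5 (at least 6.61-fold, from below background) upward and Fli1 (-2.18 ± 0.19), the clock gene Nr1d2 (-2.12 ± 0.15) and Mef2c (-1.60 ± 0.19) downward. Of 39 histone and DNA modifying enzymes 4 rose and 13 fell, a called share of 43.6% against 34.7% of all genes. Kdm6b (JMJD3), a demethylase of the repressive H3K27 mark, rose by 4.70 ± 0.14, Tet2 by 1.98 ± 0.17 and Kdm4a by 1.70 ± 0.22, while Dnmt1, which copies DNA methylation after replication, fell (-1.36 ± 0.12). With scaling to the array median these counts were 3 and 3, and with normexp 2 and 2.

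Among lower genes with a standard symbol that were well above background on all 6 arrays, the fall was greatest for Sesn1, a restraint on the growth kinase mTORC1 and a target of p53 and FOXO (chr10:41628000-41628059). It lay at 5.00, 5.29 and 5.25 at 0 h and 1.08, 0.83 and 0.59 at 3 h, 20.3-fold lower (-4.35 ± 0.22, limma adjusted p = 7.5e-12). Klhl6, an adaptor of a ubiquitin ligase, lay at 1.39, 1.15 and 1.31 at 0 h and -2.58, -3.23 and -2.55 at 3 h (-4.07 ± 0.15). Rab3a, a GTPase of vesicle release, lay at 1.21, 1.28 and 1.31 before and -2.50, -2.77 and -2.96 after LPS (-4.01 ± 0.13). In all 3 genes every 3 h array lay below every 0 h array. Abhd15, Prtg, the deubiquitinase Usp2, Lrrc17, the transcription factor Lyl1, Slc26a11, the Polycomb protein Cbx8, Chst12, Otulinl and the cannabinoid receptor Cnr2 followed, between -3.98 and -3.57. For Kbtbd11 (-4.29) and Tbc1d2 (-3.92) another probe of the gene gave -0.67 and -0.20. Rnf144b was at least 20.9-fold, Shb at least 16.4-fold and Trp53inp1 at least 14.3-fold lower, having fallen below background, though another Trp53inp1 probe gave -1.72. Fbxo32 (atrogin-1), Cbx2, Lhfpl2, Hyal1, Rassf3 and Asb10 also fell below background, with bounds of 10.2 (Lhfpl2), 7.87 (Hyal1), 6.92 (Rassf3), 6.61 (Asb10), 6.26 (Cbx2) and 6.24 (Fbxo32). The last 5 of these lost the call with the normexp correction.

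Genes of the cell cycle were lower as a group. Of 48 DNA replication and mitosis genes 37 fell and 0 rose, with a median of -0.67 and 12 of them past 2-fold. The 37 calls became 13 with scaling to the array median, 8 with normexp and 27 in the fit of the 6 arrays, and 0 were higher under each. E2f2, a transcription factor of S phase entry, lay at 4.96, 5.30 and 5.19 at 0 h and 2.10, 2.07 and 1.88 at 3 h, 8.77-fold lower with separate groups. Tk1, thymidine kinase, was 4.01-fold lower, and Gmnn, which keeps replication to a single round a cycle, 3.95-fold lower. The list's median was -0.07 at 1 h and -1.21 at 5 h. The G1 regulators split, 4 of 17 higher and 8 lower. Ccnd2 (cyclin D2), well above background on 2 of 3 arrays at 0 h, rose by 3.81 ± 0.42, the CDK inhibitor Cdkn1a (p21) by 2.47 ± 0.17 and Cdk6 by 1.75 ± 0.10, while the pocket protein Rbl2 fell (-1.55 ± 0.14) and the inhibitors Cdkn2d and Cdkn2c (-1.47 and -1.38).

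Transcripts that mark FOXO activity and quiescence had the lowest median of the 38 lists of this cell (-0.94), with 13 of 21 lower and 3 higher. With the repaired normexp correction the median was -0.45, above that of the DNA replication list (-0.63). Pik3ip1, an inhibitor of PI3 kinase (-2.55 ± 0.21), and Hbp1, a repressor of growth genes (-1.80 ± 0.13), fell, and the insulin receptor Insr was at least 2.97-fold lower, having gone below background. The Insr call was lost with the repaired normexp correction. Txnip, which binds thioredoxin and curbs glucose uptake, lay at 3.21, 3.30 and 3.38 at 0 h and 1.45, 1.62 and 1.68 at 3 h, 3.29-fold lower with separate groups. It had stood at -3.67 against 0 h at 1 h. Kctd12 (2.62 ± 0.17), Tsc22d1 (1.79 ± 0.16) and Cited2 (0.75 ± 0.11) were the members called higher. Among p53 targets 6 of 17 rose and 6 fell, with a median of 0.01 (-0.10 with quantile normalization). Plk2 rose by 2.56 ± 0.36 and Btg3 by 1.62 ± 0.12, Eda2r (at least 1.71-fold) was above background on 1 of 3 arrays at 3 h and none at 0 h, and besides Sesn1 and Trp53inp1 the repair gene Xpc fell (-1.26 ± 0.13). Survival genes were higher and lower in parts, 13 and 7 of 29. The kinase Pim1 (4.03 ± 0.21) and the anti-apoptotic Bcl2l1 (3.59 ± 0.13) rose, Phlda1 rose by 7.08 ± 0.15, and Bcl2 (-1.50 ± 0.19), Casp9 (-1.47 ± 0.20) and the BH3-only killer Bmf (-2.59 ± 0.21) fell. The other Bmf probe gave 0.41.

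Over all genes 14.9% were called and at least 2-fold different, and metabolic lists lay on both sides of that share. It was 26.9% for fatty acid and lipid storage genes, 23.5% for LXR targets, 17.6% for glucose genes, 14.8% for cholesterol synthesis, 10.8% for lysosome genes and 0% for the respiratory chain. Of 41 genes listed for the respiratory chain and TCA cycle 1 was lower and 0 higher, against 34.7% of all genes called. That gene, Idh1 (-0.58 ± 0.13), encodes the cytosolic isocitrate dehydrogenase, which is outside the TCA cycle itself. With quantile normalization 7 were lower and 0 higher. Of 27 cholesterol synthesis and uptake genes 12 fell and 2 rose, with Dhcr7 (-2.04 ± 0.17), Stard4 (-1.99 ± 0.22) and Mvd (-1.69 ± 0.15) lowest. Of 26 fatty acid and lipid storage genes 11 fell and 4 rose. Lpin1 (-2.48 ± 0.17), the desaturase Scd2 (-2.13 ± 0.19) and the elongase Elovl6 (-1.46 ± 0.22) fell, and the lipid carrier Fabp4 rose by 2.25 ± 0.14. Of 17 LXR targets and cholesterol export genes 3 rose and 5 fell, and the sterol exporters went opposite ways. Abca1 rose by 2.61 ± 0.14 and Abcg1, which loads HDL, fell (-2.33 ± 0.19), with the nuclear receptor partner Rxra at -2.07 ± 0.22.

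Of 34 glucose genes 5 were higher and 8 lower, a called share of 38.2% that lies near the 34.7% of all genes. The higher ones included Pfkfb3, which drives glycolytic flux (1.97 ± 0.16), the transporter Slc2a1 (1.47 ± 0.27) and Hif1a (1.43 ± 0.11), while the HIF target genes Egln3 (-1.82 ± 0.31) and Ankrd37 (-1.65 ± 0.15) fell. With scaling to the array median the counts were 3 and 3, with quantile normalization 4 and 12, and with the slide as a block 8 and 10. Among lysosome and autophagy genes 4 of 37 rose and 7 fell, a called share of 29.7%, below that of all genes under the main scaling only. The counts were 3 higher and 15 lower with quantile normalization and with the deposited values, and 6 and 14 with the slide as a block. Sqstm1 (p62) rose by 1.51 ± 0.22, and the autophagy kinase Ulk1 (-1.41 ± 0.23) and the lysosomal lipase Lipa (-1.18 ± 0.19) fell. Of 27 NRF2 targets and metal genes 9 rose and 5 fell (51.9% called). Srxn1 (2.26 ± 0.14), the metallothionein Mt2 (2.21 ± 0.21) and the zinc importer Slc39a14 (2.12 ± 0.23) rose, whereas Osgin1 (-2.63 ± 0.19), the glutathione enzyme Gclc (-1.61 ± 0.15) and heme oxygenase Hmox1 (-1.26 ± 0.27) fell. With quantile normalization the counts were 8 and 8. In the integrated stress and unfolded protein list 10 of 33 rose and 3 fell, a called share of 39.4% that lies near that of all genes under the main scaling. The counts were 10 higher and 7 lower with quantile normalization, and 14 and 6 with the slide as a block. Chac1 (3.15 ± 0.30) and Trib3 (2.86 ± 0.20) were highest and the kinase gene Eif2ak3 (-1.78 ± 0.10) lowest. The inducible heat shock genes Hspa1a and Hspa1b came out of the background, at least 11.4-fold and 8.77-fold higher. Of 19 heat shock genes 8 rose and 2 fell (52.6% called). Of 30 ribosome biogenesis genes 7 rose and 0 fell, Rrp9 by 1.11 ± 0.15, a called share of 23.3%, below that of all genes. The counts were 2 higher with scaling to the array median, 7 higher and 2 lower with quantile normalization, and 16 higher with the slide as a block. The counts that rose became 2 of 19 for heat shock genes and 4 of 33 for the integrated stress list with scaling to the array median.

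The size of list medians and the number of calls depended on the background correction, the scaling and the filter. With probes kept only if well above background on all 6 arrays, the median was 1.65 for cytokines and 2.85 for chemokines. It was 2.04 for antiviral effectors (46 of 51 higher) and 3.95 for the GTPases (8 of 9 higher). Interferon regulatory factors and partners then had 5 of 12 higher and 1 lower. With the repaired normexp correction the median was 2.31 for chemokines, 1.37 for cytokines, 1.47 for antiviral effectors, 1.59 for the itaconate list, 1.48 for costimulation genes, 0.87 for cytosolic sensors and 0.59 for complement genes, and the GTPases (2.81) and the NF-kB list (2.64) then lay above the chemokines. With scaling to the array median the higher calls became 10 of 29 in the TRAF list, 7 of 23 in the Toll list and 8 of 29 among survival genes. The lower calls became 5 of 27 for cholesterol synthesis, 6 of 26 for fatty acid genes, 3 of 17 for LXR targets and 3 of 37 for lysosome genes.

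**Figure D5:**
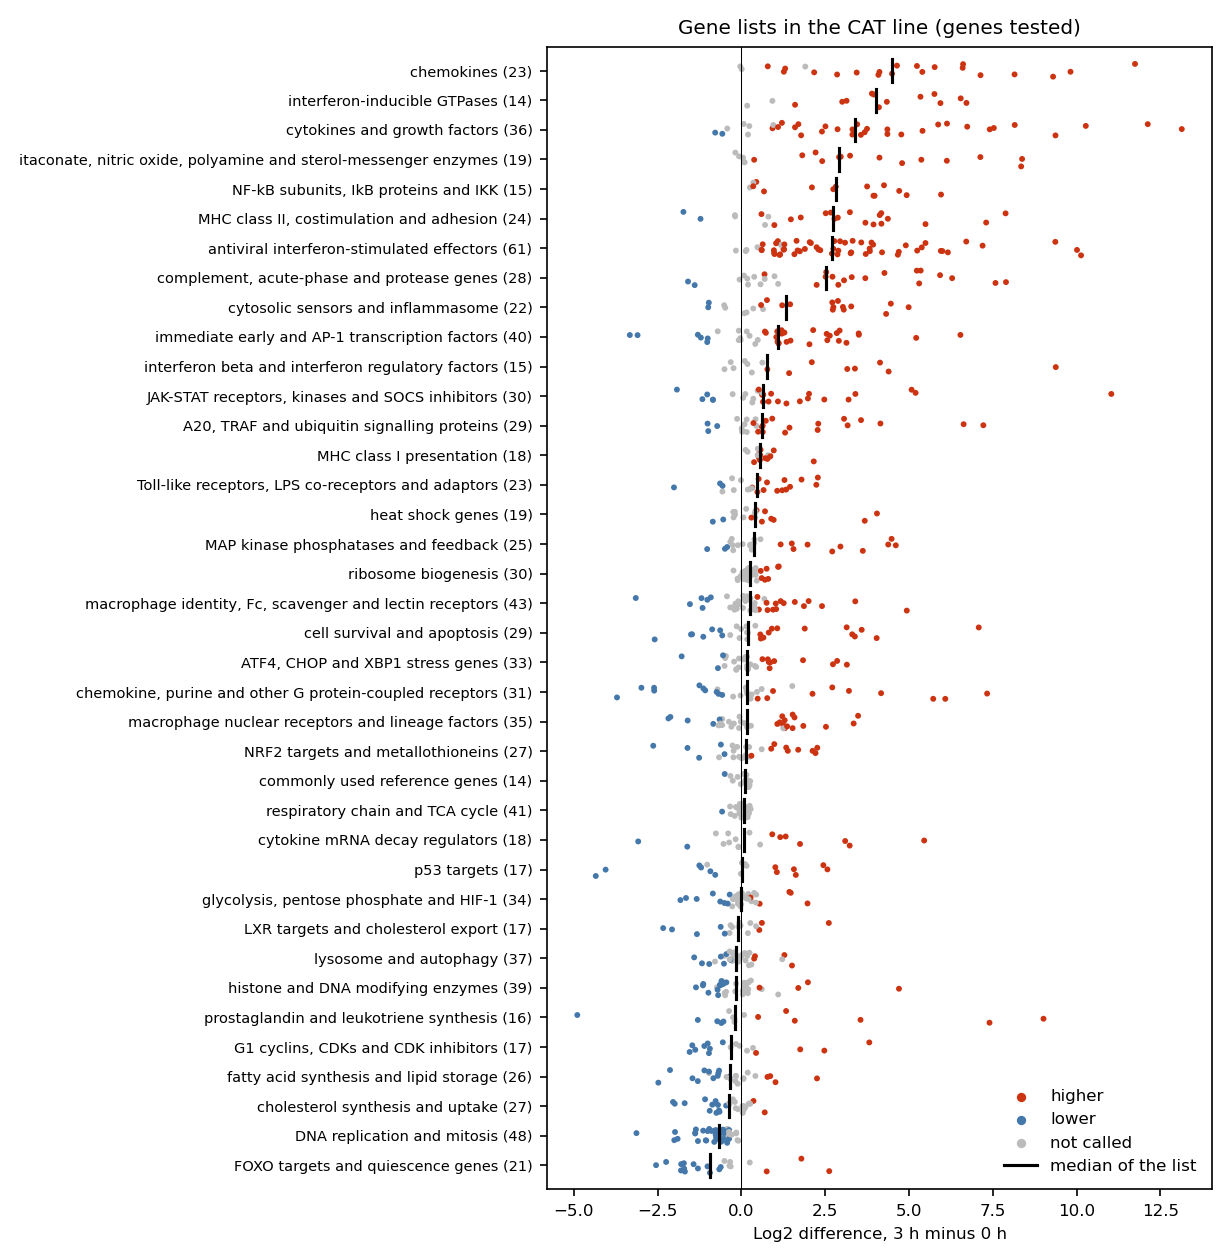
Log2 difference between 3 h and 0 h of LPS in the CAT line (x axis) for the tested members of 38 gene lists (y axis, number tested in brackets), sorted by the list median (black bar); red points were called higher, blue lower and grey not called. Medians run from -0.94 for FOXO targets and quiescence genes to 4.49 for chemokines, and the medians of the respiratory chain and reference genes are 0.09 and 0.11.

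Markers of other cell types were mostly below the filter. T and NK cell genes had 4 of 13 on the array tested, B cell genes 4 of 10, dendritic cell genes 5 of 8, granulocyte and mast cell genes 4 of 13, and erythroid, fibroblast and epithelial genes 7 of 16. The defining markers Cd3d, Cd8a, Ms4a1, Cd79a, Elane, Col1a1 and Epcam were on the array and did not pass the filter. The summed level of the tested genes, comparable only within a list, spanned 0.644 to 1.07 on the 0 h arrays and 1.23 to 1.58 on the 3 h arrays for T and NK cells. For B cells these ranges were 0.302 to 0.743 and 0.302 to 0.908. For dendritic cells they were 1.70 to 2.24 and 4.23 to 5.10, for granulocytes 0.265 to 0.397 and 0.316 to 0.539, and for the last list 0.835 to 1.07 and 1.20 to 1.79. Called higher were 2 T and NK cell genes, 1 B cell gene, 1 dendritic cell gene, 0 granulocyte genes and 2 of the last list, and 0 were lower. Among them were the B cell receptor chain Cd79b (at least 2.55-fold), the integrin Itgax (1.72 ± 0.17), the T cell kinase Lck (1.26 ± 0.15) and the matrix genes Lum (at least 1.45-fold) and Dcn (at least 1.45-fold), which were below background at 0 h and above it on 2 and 1 of 3 arrays at 3 h. The signs of Lum and Dcn turned with the normexp correction. Genes of osteoclasts, a cell that RAW264.7 can become, were measured (8 of 9 on the array), and their summed level was 53.1 to 65.9 at 0 h and 146 to 167 at 3 h. The fusion genes Ocstamp and Dcstamp rose by 4.98 ± 0.24 and 2.87 ± 0.16, and 4 of the 8 rose and 0 fell. The part of these shifts in the other results was not tested.

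The response at 3 h was set against that of the Tbc1d23 line, in which 999 genes (6.63%) were called between 3 h and 0 h. The difference between the 2 responses was itself called for 2502 genes (16.6%), and for 4545 with the slide as a block. The Tbc1d23 arrays at 0 h were uneven, with 69.6, 42.1 and 57.6% of probes well above background. Their 3 h arrays had 49.1, 47.2 and 51.2%, and the 6 CAT arrays 48.6 to 53.3%. The part of this unevenness in the counts was not tested. Replicates 1 and 2 of the Tbc1d23 line lay on slides of another serial run, as inferred from a gap in the slide barcode numbers. No label names a run or a batch. Fitted over the run of the CAT slides alone, where the Tbc1d23 line has 1 array per time, the count was 1629. Ifit1, which rose by 10.01 in the CAT line, went from -1.63 ± 0.16 at 0 h to -1.32 ± 0.16 at 3 h in the Tbc1d23 line (SD, n = 3), a difference between responses of -9.70 ± 0.24. Cmpk2 (-6.59 ± 0.20), Mx2 (-6.49 ± 0.25), Isg15 (-6.48 ± 0.21), Isg20 (-6.31 ± 0.17) and Wscd2 (-6.28 ± 0.67) had the next largest responses in favour of the CAT line. The other Wscd2 probe differed by 0.08 between 3 h and 0 h in the CAT line. Falls that were deeper in the CAT line were those of Bmf (3.44 ± 0.29), Klhl6 (3.31 ± 0.22), Klhl24 (3.22 ± 0.24), Slc26a11 (3.19 ± 0.38), Sesn1 (3.07 ± 0.31) and Tmem86a (3.03 ± 0.19). The largest adjusted p among these 12 was 4.64e-06 (limma). The other Bmf probe did not fall between 0 h and 3 h in the CAT line. The median 3 h response of the antiviral effectors was 2.70 in the CAT line and -0.01 in the Tbc1d23 line, and that of the chemokines 4.49 and 0.82.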

How the data were processed

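RNA of 24 samples was read on one-colour Agilent arrays. The deposited scanner files hold background-subtracted processed intensities made, per the file headers, with Feature Extraction 10.7.1.1. The authors' deposited value table appears to be on a log2 scale, as inferred from the values, and served as an alternative. The submitters' processing notes also name RMA and Partek, without versions or roles.

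Intensities were scaled to the 75th percentile of each array and log2-transformed, and spots of a probe were averaged. Control spots and outlier flags were left out. A probe was kept if all 3 arrays of any group had it well above background (21964 of 41174), with the brightest per gene name (15079 names). Names came from the accession (25097 probes) through a GRCm38.p6 table, and probe coordinates are mm9. limma 3.58.1 in R 4.3.3 fitted 8 group means over all arrays, with Benjamini-Hochberg adjustment over all gene names. The steps were tested on simulated data. Deviations of 0 h and 3 h arrays with the same number correlated at 0.186, 0.564 and 0.394 (unlike numbers at most 0.0343), and each number is a slide, so the slide was also fitted as a block.

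Genes were named by rule: the 15 highest and 15 lowest measured on all 6 arrays, the 10 largest bounds in each direction, the 3 highest and 3 lowest calls of each list, a fixed set, and the 6 most different each way from 1 h and from the Tbc1d23 line. The members and the 44 lists were chosen with earlier results of these data known. Some listed genes are not reported here. Alternatives varied the scaling, background correction, filter, probe choice, arrays fitted, block, prior and threshold, and left out each replicate. Precision is limited by 3 arrays a group.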

Additional observations from a re-analysis of the deposited data

Results flagged for a closer look

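The change from 1 h to 3 h in the CAT line was itself tested in limma, and 12 genes stood out by the size of that difference. The log2 level at 3 h exceeded that at 1 h by 6.92 for Penk, 6.68 for Mx2, 6.29 for Cmpk2, 6.26 for Shisa3, 5.79 for Ifit1 and 5.73 for Fas. The same difference was -5.94 for Jun, -5.90 for Nr4a1, -5.38 for Egr1, -3.96 for Prtg, -3.92 for Egr3 and -3.82 for Klhl6. The other Penk and Fas probes gave smaller differences from 0 h, 4.58 and 4.33.

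The 3 h response of the Tbc1d23 line minus that of the CAT line, tested as an interaction in limma, was -9.70 for Ifit1, -6.59 for Cmpk2, -6.49 for Mx2, -6.48 for Isg15, -6.31 for Isg20 and -6.28 for Wscd2. It was 3.44 for Bmf, 3.31 for Klhl6, 3.22 for Klhl24, 3.19 for Slc26a11, 3.07 for Sesn1 and 3.03 for Tmem86a. In the CAT line the other Wscd2 probe hardly differed between 3 h and 0 h, and the other Bmf probe did not fall. The lines are 1 each, and 2 of the 3 Tbc1d23 replicates lay on another slide run, as inferred from the barcode numbers. The part of that run in these values was not tested. The Tbc1d23 arrays at 0 h also varied in the share of probes well above background, from 42.1 to 69.6%. No cause was tested for either set.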

How the results depend on the processing

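There were 264 called values of named genes (240 differences of 3 h from 0 h, 12 from 1 h and 12 between the lines). Of these, 190 kept their direction and their side of the threshold under every setting that gave them a value. The filter on all 6 arrays gave a value for 214 of the 264, and the rest were not compared under it. The other 74 lost the call under at least 1 setting. Of them 4 reversed, those of Tlr3 (-0.10), Lum (-0.079), Dcn (-0.19) and Nos2 (-0.18) with the normexp correction. That correction gave 69 of the lost calls and median scaling 28. Among uncalled values Gapdh turned to -0.25 with quantile normalization and -0.25 with the deposited values, and Actb to 0.075 with normexp. Without CAT 3 h replicate 1 Actb was at 0.026, the highest, and without CAT 3 h replicate 3 at -0.20, the lowest value with a replicate left out.

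The 5232 calls became 2341 (1174 higher, 1167 lower) with median scaling, and 1568 (885 and 683) with normexp, whose fit diverged on 6 arrays. With the other settings, left-out replicates aside, the total lay between 4005 and 7377. Leaving out each replicate gave 4583 to 4924 calls, 2134 to 2614 higher and 2286 to 2598 lower. The 2502 line differences became 1107 with median scaling, 309 with normexp, 1629 in the slide run of the CAT arrays, 1654 at an adjusted p under 0.01, and 2142 to 2454 with a replicate left out. With the slide as a block, paired by replicate number, they were 4545 (fixed) and 4474 (random). The block made Tbc1d23 and Csf1r called lower and ended no call of the named genes. The cause of these shifts was not tested. Where 1 array was left in a group, its spread was taken to be that of the others.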
